A study of Mus musculus with 12 samples.

Results

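A set of 10 genes of small RNA biology were followed in mouse oocytes across the pubertal transition and form the members by name: Dicer1, Drosha, Dgcr8 and Ago2 of the microRNA and siRNA pathways, and Piwil1, Piwil2, Mael, Mov10l1, Ddx4 and Tdrkh of the piRNA pathway. They are 10 of the 24562 genes in the deposited tables, and all 10 were among the 13943 genes with enough counts to be tested. The mice were of the CD-1 strain, with no stated genetic modification and no hormone stimulation, and their oocytes were released from antral follicles, stripped of cumulus cells by pipetting, and still held an intact germinal vesicle. There were 4 cohorts: females on postnatal day (PND) 13, PND 16 females of small body size, PND 16 females of large body size, and PND 40 females. Each cohort had 3 pools, a pool held 18 to 45 oocytes, and every group shared the milrinone that holds oocytes in meiotic arrest. The study called PND 16 large and PND 40 oocytes meiotically competent (6 pools) and PND 13 and PND 16 small oocytes non-competent (6 pools), so competence, age and body size cannot be told apart fully in that comparison. The paper states that oocytes were taken from 3 mice per condition to make the 3 pools, without saying whether each pool came from a single mouse. Since pools were counted as replicates, p-values measure the spread between pools and not between single oocytes. Whether that spread is also one between mice is not known.

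Drosha and its RNA-binding partner Dgcr8 form the nuclear Microprocessor, which cuts primary microRNA transcripts into hairpins. Dicer1 cuts those hairpins, and long double-stranded RNA, into microRNAs and endogenous siRNAs, and Ago2 is the Argonaute protein that binds the products and can slice a matching RNA. In growing mouse oocytes endogenous siRNAs act on transposons and messenger RNAs, and rodents have a shorter, oocyte-specific Dicer1 isoform made from a transposon promoter inside the gene, which counts per gene do not separate from the full-length form. The piRNA pathway silences transposons in germ cells: Piwil1 (MIWI) and Piwil2 (MILI) are PIWI proteins that carry piRNAs, Mov10l1 is an RNA helicase needed to make piRNA precursors available, Tdrkh is a mitochondrial Tudor protein that helps trim them, Ddx4 (mouse vasa homologue) is a germ granule helicase, and Mael is a germ granule protein needed for transposon silencing. In mice the loss of piRNA proteins stops spermatogenesis, whereas females of most such mutants stay fertile.

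The genes lie apart in the genome. By the GENCODE annotation on GRCm38 (mm10), Dicer1 spans chr12:104687742-104751952, Dgcr8 chr16:18253948-18289246, Piwil1 chr5:128702524-128755474, Piwil2 chr14:70372477-70429383, Mael chr1:166201201-166238747, Ddx4 chr13:112598333-112652475 and Tdrkh chr3:94413273-94434668. Drosha (chr15:12824815-12935291), Ago2 (chr15:73095844-73184935) and Mov10l1 (chr15:88982909-89055152) share chromosome 15 without overlapping. Exons of 4 of the genes overlap exons of another gene: Dgcr8 with Trmt2a on the other strand over 825 bases and with the same-strand model Gm49776 over 327 bases, Tdrkh with Oaz3 on the other strand over 340 bases, Ago2 with Chrac1 on the other strand over 219 bases, and Drosha with a microRNA model over 72 bases. The libraries kept strand, but the strand setting of the counting was not given in the sources used here, so reads in those stretches may be missing or may belong to the partner.

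RefSeq promoter windows (build GRCm38.p6) were at hand for 8 of the 10 genes. Piwil2 and Ago2 had none, so their promoters were not searched. For the 8, the 250 bases before each RefSeq start were searched for motifs. The RefSeq start is not always the outermost GENCODE start: that of Piwil1 lies 33722 bases inside the GENCODE span given above. GENCODE exons, of the gene itself or of a neighbour, cover 165 of the 250 bases for Ddx4, 106 for Piwil1, 85 each for Drosha and Mov10l1, 78 for Dgcr8 and 3 for Mael. The stretches printed are the part of the window outside all annotated exons, for Piwil1, the gene called higher in a comparison, for Mael, which shares an E-box with it but was called in no comparison, and for Drosha, which was called lower and held no motif. Capitals mark E-boxes (CANNTG on either strand, the kind of site bound by FIGLA and SOHLH1). Piwil1 is from chr5:128736030-128736173 on the plus strand, Mael from chr1:166238748-166238994 on the minus strand and Drosha from chr15:12824650-12824814 on the plus strand, each written 5′ to 3′.
Piwil1: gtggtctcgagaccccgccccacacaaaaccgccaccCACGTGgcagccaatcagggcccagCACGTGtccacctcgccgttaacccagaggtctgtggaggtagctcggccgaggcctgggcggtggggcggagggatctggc
Mael: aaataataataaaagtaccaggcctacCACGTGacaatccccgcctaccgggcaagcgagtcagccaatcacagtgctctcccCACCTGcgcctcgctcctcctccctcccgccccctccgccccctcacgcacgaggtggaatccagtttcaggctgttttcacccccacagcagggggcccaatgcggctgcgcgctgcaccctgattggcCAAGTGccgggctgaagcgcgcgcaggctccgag
Drosha: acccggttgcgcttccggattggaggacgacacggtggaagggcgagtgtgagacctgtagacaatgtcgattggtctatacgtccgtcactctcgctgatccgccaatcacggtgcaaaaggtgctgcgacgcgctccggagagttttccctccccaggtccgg

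Over the whole 250-base windows, E-boxes were found in 6 of the 8 promoters, against 66.2% of all 32851 promoters of that length. An E-box thus did not set these 8 genes apart, and Piwil2 and Ago2 were not searched. Piwil1 held 5, Mael 3, Mov10l1 2, and Ddx4, Dgcr8 and Tdrkh 1 each, whereas Dicer1 and Drosha held 0. The palindromic E-box CACGTG, looked at after the matches were seen, was in 4 of the 8 promoters (Piwil1, Mael, Mov10l1 and Ddx4) and in 6.02% of all promoters. In Ddx4 it began 29 bases before the RefSeq start, inside the first exon of a longer GENCODE transcript, and Piwil1 held it at 179 and at 154 bases before the start. The NOBOX element (TAATTG or TAATTA) was present only in Tdrkh of the 8, with 2 copies, and in 11.3% of all promoters. The MYB element (AACNGTT or CAACTG) was present only in Piwil1, where its single match is also an E-box, and in 13.8% of all promoters, and the CRE (TGACGTCA) was in 0 of the 8 and in 1.55% of all. Genes with the CACGTG E-box had unlike profiles in these oocytes, since Ddx4 fell between non-competent and competent oocytes while Mael did not pass the test in any comparison.

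Total counts ran from 17671193 to 27418358 per pool, and the 10 genes had between 150 and 39484 counts each in a pool. Levels are given as CPM (counts scaled to a common library size) after TMM scaling, whose factors lay between 0.955 and 1.07. A gene was called when its change reached 1.5-fold or more with an adjusted p (Benjamini-Hochberg, edgeR's quasi-likelihood test) no higher than 0.05. All pools were rich in oocyte transcripts, with 12 of 12 oocyte markers (such as Gdf9 and Zp3) detected and a summed level of 15862.5 to 20405 CPM. The 12 granulosa and cumulus cell markers were all detected in every pool. They summed to 158 to 189 CPM in the competent pools but 140 to 641 CPM in the non-competent pools. The highest sums were in PND 13 replicate 3 (641 CPM), PND 13 replicate 1 (555 CPM) and PND 16 small replicate 2 (539 CPM). Nr5a2 (87.9 to 146 CPM over the pools) and Cyp19a1 (12.7 to 24.3 CPM) varied little and give these sums a floor. Other markers ranged more widely, such as Inhbb (1.02 to 155 CPM) and Inha (2.34 to 143 CPM), so the sums understate the spread of those markers. The 5 theca cell markers summed to 7.45 to 10.3 CPM in competent pools and 12.1 to 31.5 CPM in non-competent pools. Insl3 was at 0 in 11 pools and Cyp17a1 at 0 in 7 pools. Ptch1 reached 28.4 CPM, whereas Cyp11a1 reached at most 5.79 CPM and Star 1.84 CPM, so the highest theca sum rests largely on Ptch1. The 6 blood and immune cell markers summed to at most 2.88 CPM, with Hba-a1 and Hbb-bs at 0 in all 12 pools. In pools of whole cells, fewer cells of a type and less RNA per cell cannot be told apart.

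Per kilobase of exon, the 10 genes spread over a 52.6-fold range of mean level across the 12 pools. Dicer1 stood first with 149 CPM per kilobase, above 98.2% of the tested genes with a known length, followed by Ddx4 (55.2 CPM per kilobase), Drosha (44.2) and Mael (34.5). Piwil1 (15.1), Dgcr8 (10.5), Tdrkh (7.97), Piwil2 (7.45) and Ago2 (5.65) lay between percentiles 52.2 and 71.3. Mov10l1 was lowest at 2.83 CPM per kilobase, at percentile 40.6, below the median of 5.02 CPM per kilobase over all tested genes. The Dicer1 level was thus 3.37 times that of Drosha, 14.2 times that of Dgcr8 and 26.4 times that of Ago2 on the per-kilobase scale. These lengths are unions of annotated exons, so a gene whose oocyte transcripts use only part of them, as may hold for the oocyte form of Dicer1 or the long Ago2 model of 13800 bases, has its level per kilobase understated. The coefficient of variation over the 12 pools was largest for Piwil2 (64.8%), Ago2 (36.8%) and Ddx4 (30.8%) and smallest for Tdrkh (10.02%), Dicer1 (12.3%) and Mael (12.7%).

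**Figure D1:**
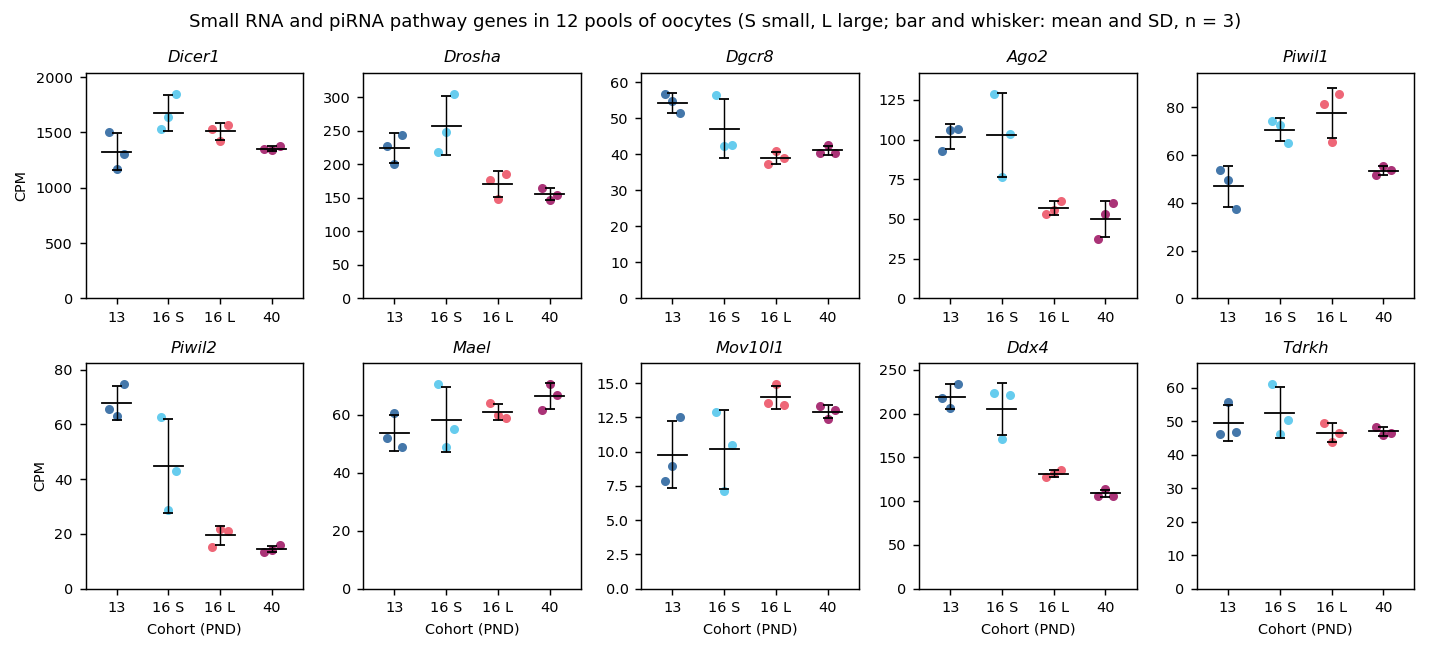
Level (CPM, axis from 0) of each of the 10 genes in the 12 pools, by cohort (13, PND 13; 16 S, PND 16 small; 16 L, PND 16 large; 40, PND 40), with the bar and whisker at the mean and SD of 3 pools. Piwil2, Ago2 and Ddx4 sit lower in all PND 16 large and PND 40 pools than in any PND 13 or PND 16 small pool, while Piwil1 is highest at PND 16 and Mael and Tdrkh keep overlapping pools across most cohorts.

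The question of the first comparison was how oocytes able to mature differ from those that are not. Between competent and non-competent oocytes, 3 of the 10 genes were called, all lower: Piwil2, Ago2 and Ddx4. The background is that 11.2% of all tested genes were called lower and 3.78% higher in that comparison. The 10 genes were chosen with earlier results of these data known. At any fold change 6 of the 10 genes passed the adjusted p, against 30.7% of all tested genes, the additional ones being Drosha and Dgcr8 (lower) and Mov10l1 (higher). For 4 genes (Piwil2, Ago2, Ddx4 and Drosha) the pools of the groups did not overlap, which was so for 14.7% of all tested genes. The median log2 fold change of the 10 genes was -0.23, beside -0.0046 over all tested genes.

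Among the Microprocessor and Dicer genes, Drosha was lower in the competent cohorts, Dgcr8 was slightly lower, and Dicer1 was not. Dicer1 read 1503, 1167 and 1306 CPM at PND 13, 1531, 1642 and 1851 CPM at PND 16 small, 1536, 1427 and 1572 CPM at PND 16 large, and 1347, 1339 and 1377 CPM at PND 40. The 3 PND 16 small pools were above all PND 13 pools, and the PND 40 pools lay within the PND 13 range. No Dicer1 difference was called, and the one that passed the adjusted p was PND 40 vs. PND 16 small (log2 fold change -0.31 ± 0.09 SE, adjusted p = 0.0233, a 1.24-fold difference). Between competent (1433 ± 99.2 CPM, SD, n = 6) and non-competent pools (1500 ± 242 CPM, SD, n = 6) the Dicer1 log2 fold change was -0.07 ± 0.10 (SE), with an edgeR adjusted p of 0.637.

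Drosha read 228, 200 and 244 CPM at PND 13, 219, 249 and 306 CPM at PND 16 small, 177, 149 and 186 CPM at PND 16 large, and 165, 147 and 154 CPM at PND 40. Every competent pool was below every non-competent pool, with PND 16 large replicate 3 (186 CPM) and PND 13 replicate 2 (200 CPM) nearest to each other. Drosha was called lower in PND 16 large vs. PND 16 small (log2 fold change -0.60 ± 0.12 SE, 1.51-fold, edgeR adjusted p = 0.00823) and again when PND 40 was set against PND 16 small (-0.73 ± 0.12, 1.66-fold, adjusted p = 0.000748). The first of these calls sat at the edge of the fold criterion and was lost without PND 16 small replicate 3 (log2 fold change -0.45), without PND 16 large replicate 2 (-0.50) and with no filter on low counts (-0.58). Competent vs. non-competent, the Drosha change was 1.48-fold (-0.56 ± 0.10, adjusted p = 0.000631), past the adjusted p but short of the fold criterion.

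Dgcr8 read 56.8, 54.9 and 51.4 CPM at PND 13, 56.6, 42.3 and 42.6 CPM at PND 16 small, 37.4, 40.8 and 39.0 CPM at PND 16 large, and 40.4, 42.5 and 40.5 CPM at PND 40. All PND 13 pools were above all competent pools, whereas PND 16 small was split, with replicate 1 at the PND 13 level and the other two near the competent level. The Dgcr8 change passed the adjusted p in PND 16 large vs. PND 13 (log2 fold change -0.48 ± 0.11 SE, adjusted p = 0.00887), PND 40 vs. PND 13 (-0.40 ± 0.11, adjusted p = 0.0155) and competent vs. non-competent (-0.34 ± 0.09, adjusted p = 0.0104), and reached 1.5-fold in none of the 7 comparisons. The reads that Dgcr8 may share with the overlapping genes named above are part of these values.

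Ago2, the Argonaute slicer, was lower in the competent cohorts. It read 92.6, 106 and 107 CPM at PND 13, 129, 76.3 and 104 CPM at PND 16 small, 53.0, 55.9 and 61.6 CPM at PND 16 large, and 37.4, 53.3 and 59.7 CPM at PND 40. No competent pool exceeded 61.6 CPM and no non-competent pool was under 76.3 CPM. Ago2 was 1.91-fold lower in competent oocytes (53.5 ± 8.58 CPM vs. 102 ± 17.4 CPM, SD, n = 6 each, log2 fold change -0.94 ± 0.13 SE, edgeR adjusted p = 0.000163). It was also called lower in all 4 pairwise comparisons of a competent with a non-competent cohort, by 1.79-fold (PND 16 large vs. PND 13, adjusted p = 0.00706), 2.03-fold (PND 40 vs. PND 13, adjusted p = 0.00163), 1.81-fold (PND 16 large vs. PND 16 small, adjusted p = 0.0137) and 2.05-fold (PND 40 vs. PND 16 small, adjusted p = 0.00169). The call in PND 16 large vs. PND 16 small was lost without PND 16 large replicate 1 (log2 fold change -0.81) and without PND 16 large replicate 2 (-0.84), with adjusted p values from 0.000113 to 0.0757 over all alternatives. PND 40 and PND 16 large did not differ detectably (log2 fold change -0.18 ± 0.19 SE, adjusted p = 0.640).

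Piwil2 showed the largest change of the 10 genes in competent vs. non-competent oocytes. It read 65.8, 63.1 and 74.8 CPM at PND 13, 62.7, 28.6 and 43.1 CPM at PND 16 small, 15.2, 21.8 and 21.2 CPM at PND 16 large, and 13.4, 14.2 and 15.8 CPM at PND 40. The cohort means stepped down from PND 13 through the small and then the large mice of PND 16 to PND 40, the small mice were the most spread cohort, and neighbouring cohorts were apart beyond the test's threshold only between PND 16 small and PND 16 large. Piwil2 was 3.33-fold lower in competent (16.9 ± 3.64 CPM, SD, n = 6) than in non-competent oocytes (56.3 ± 17.1 CPM, SD, n = 6), with a log2 fold change of -1.73 ± 0.21 (SE) and an edgeR adjusted p of 8.59e-05. The pairwise falls called were 3.498-fold in PND 16 large vs. PND 13 (adjusted p = 0.000445), 4.69-fold in PND 40 vs. PND 13 (adjusted p = 5.41e-05), 2.31-fold in PND 16 large vs. PND 16 small (adjusted p = 0.00704) and 3.10-fold in PND 40 vs. PND 16 small (adjusted p = 0.000375). In PND 16 small vs. PND 13 the 1.52-fold difference did not pass (adjusted p = 0.173), although it was called without PND 16 small replicate 1, the pool at the PND 13 level.

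Ddx4, the germ granule helicase, gave the tightest separation. It read 218, 206 and 234 CPM at PND 13, 224, 171 and 221 CPM at PND 16 small, 127, 132 and 135 CPM at PND 16 large, and 106, 114 and 106 CPM at PND 40. The competent pools (106 to 135 CPM) and non-competent pools (171 to 234 CPM) did not overlap, and within the competent group all PND 40 pools were below all PND 16 large pools. Ddx4 was 1.77-fold lower in competent oocytes (120 ± 12.9 CPM vs. 212 ± 22.1 CPM, SD, n = 6 each, log2 fold change -0.82 ± 0.09 SE, edgeR adjusted p = 2.68e-05). It was called lower by 1.67-fold in PND 16 large vs. PND 13 (adjusted p = 0.00035), 2.02-fold in PND 40 vs. PND 13 (adjusted p = 2.6e-05), 1.56-fold in PND 16 large vs. PND 16 small (adjusted p = 0.00222) and 1.89-fold in PND 40 vs. PND 16 small (adjusted p = 4.08e-05). The third of these was lost without PND 16 small replicate 1, where the log2 fold change was -0.57 and so under 1.5-fold. Between PND 40 and PND 16 large, Ddx4 differed by 1.21-fold with an adjusted p of 0.102.

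The granulosa and theca marker sums were also higher in some or all non-competent pools, with the highest theca sum resting largely on Ptch1, as given above. The part of these cells in the falls of Piwil2, Ago2 and Ddx4 was not tested. PND 13 replicate 2 had the lowest granulosa marker sum of all 12 pools (140 CPM) and held 63.1 CPM of Piwil2, 106 CPM of Ago2 and 206 CPM of Ddx4. PND 16 small replicate 2 had a granulosa sum of 539 CPM and the lowest Piwil2, Ago2 and Ddx4 of the 6 non-competent pools. On the other side, PND 13 replicate 3 had the highest granulosa (641 CPM) and theca (31.5 CPM) sums. That pool held the most Piwil2 (74.8 CPM) and Ddx4 (234 CPM) of all 12 pools, and 107 CPM of Ago2. PND 13 replicate 1 (granulosa sum 555 CPM) held 65.8 CPM of Piwil2, 92.6 CPM of Ago2 and 218 CPM of Ddx4. Without the 3 pools with the highest granulosa sums, an alternative chosen after seeing the data, the log2 fold changes of competent vs. non-competent oocytes were -1.73 for Piwil2, -1.07 for Ago2 and -0.85 for Ddx4, and all 3 were called, with PND 13 down to 1 pool.

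Piwil1, the second PIWI gene, had a profile of its own. It read 53.7, 49.5 and 37.5 CPM at PND 13, 74.4, 72.5 and 65.2 CPM at PND 16 small, 81.2, 65.6 and 85.7 CPM at PND 16 large, and 51.6, 55.4 and 53.6 CPM at PND 40. All 6 PND 16 pools, small and large, were above all PND 13 and all PND 40 pools. Piwil1 was called higher in PND 16 large vs. PND 13 (1.65-fold, log2 fold change 0.73 ± 0.13 SE, edgeR adjusted p = 0.00201). In PND 16 small vs. PND 13 a rise of 1.51-fold just missed the adjusted p (0.0533), and in PND 40 vs. PND 16 large a fall passed the adjusted p (0.0291) but not the fold criterion (1.45-fold). Both near misses became calls under other settings, the first without PND 13 replicate 1 and the second without PND 16 large replicate 2. PND 40 vs. PND 16 small was likewise lower at any fold change (log2 fold change -0.40 ± 0.13 SE, adjusted p = 0.0337). Competent and non-competent pools overlapped (0.16 ± 0.17, adjusted p = 0.529), and PND 40 and PND 13 did not differ detectably (0.19 ± 0.13, adjusted p = 0.288).

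The remaining piRNA genes moved little. Mov10l1, the precursor helicase, read 7.83, 8.95 and 12.5 CPM at PND 13, 12.9, 7.11 and 10.5 CPM at PND 16 small, 13.6, 15.0 and 13.4 CPM at PND 16 large, and 13.3, 12.4 and 13.1 CPM at PND 40. Of the 6 competent pools 5 were above the highest non-competent pool (12.9 CPM) and 1, at 12.4 CPM, was within the non-competent range, and the rise passed the adjusted p only in competent vs. non-competent oocytes (1.35-fold, log2 fold change 0.43 ± 0.15 SE, adjusted p = 0.0421), under 1.5-fold. Mael read 51.8, 60.5 and 48.7 CPM at PND 13, 70.6, 48.9 and 55.0 CPM at PND 16 small, 64.0, 59.9 and 58.7 CPM at PND 16 large, and 61.6, 70.5 and 66.9 CPM at PND 40. The PND 40 pools of Mael were all above the PND 13 pools, a 1.24-fold difference that did not pass (log2 fold change 0.31 ± 0.13 SE, adjusted p = 0.0818). Tdrkh stayed between 44.0 and 61.2 CPM in all 12 pools, with log2 fold changes between -0.17 and 0.08 over the 7 comparisons and no adjusted p under 0.26.

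**Figure D2:**
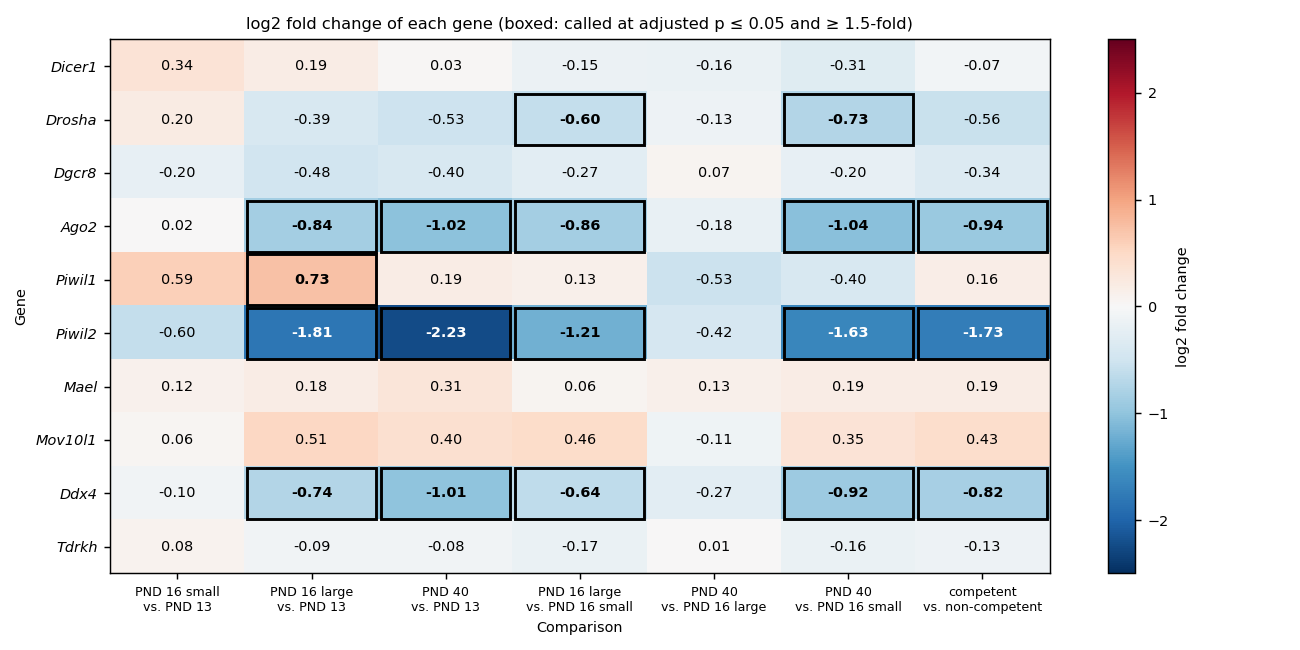
log2 fold change (colour and number) of the 10 genes in the 6 pairwise comparisons of cohorts and in competent vs. non-competent oocytes, with a box around each called change. Boxes fill the rows of Ago2, Piwil2 and Ddx4 wherever a competent cohort is set against a non-competent one, and none stands in PND 16 small vs. PND 13 or PND 40 vs. PND 16 large.

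The calls of the pairwise comparisons are given here beside their backgrounds. Each background is the share of all tested genes called by edgeR at 1.5-fold or more. For these comparisons no such share was taken at an unadjusted p, at any fold change or by DESeq2. Counts under those criteria therefore have no background beside them. In PND 16 small vs. PND 13, both non-competent, 0 of the 10 genes were called in either direction by edgeR, 0 passed the adjusted p at any fold change, 3 had an unadjusted p under 0.05, and 1 (Piwil1) was called by DESeq2, beside a background of 0.179% of tested genes called higher and 0.194% lower. In PND 40 vs. PND 16 large, both competent, 0 of the 10 were called by edgeR or by DESeq2, 2 had an unadjusted p under 0.05 and Piwil1 alone passed the adjusted p, with 2.34% of tested genes called higher and 1.32% lower. With backgrounds this low, 0 of 10 is no result about these genes. In PND 16 large vs. PND 13, 1 gene was called higher and 3 lower (background 3.52% higher and 9.80% lower). In PND 40 vs. PND 13, 0 were called higher and 3 lower (background 6.31% and 12.6%). In PND 16 large vs. PND 16 small, the comparison at one age, 0 were called higher and 4 lower (background 1.43% and 4.76%). In PND 40 vs. PND 16 small, 0 were called higher and 4 lower (background 6.89% and 10.3%). These comparisons share cohorts, so the repeated calls of Piwil2, Ago2 and Ddx4 are not independent of each other.

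The proportions of the paralogs within a pool differed between cohorts, compared here per kilobase of exon and as a description without a test. At PND 13, Piwil2 stood at 1.03, 1.07 and 1.67 times the level of Piwil1 in the 3 pools. At PND 16 small the order was already turned, with Piwil1 at 1.42, 3.03 and 1.81 times the level of Piwil2. Piwil1 was 6.37, 3.59 and 4.83 times the level of Piwil2 at PND 16 large and 4.58, 4.67 and 4.06 times at PND 40. Piwil2 was thus the higher of the pair in all 3 PND 13 pools and the lower in all 9 others. The ratios of 1.03 and 1.07 are near parity, and the order on this scale rests on the exon lengths. In plain CPM the PND 13 pools also had more Piwil2 (63.1 to 74.8 CPM) than Piwil1 (37.5 to 53.7 CPM).

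Within the Argonaute family the level of Ago2 per kilobase was set against that of Ago3. Ago3 stood at 0.907, 0.739 and 0.636 times the level of Ago2 at PND 13, at 0.743, 1.35 and 1.11 times at PND 16 small, at 2.43, 1.93 and 1.86 times at PND 16 large, and at 2.71, 2.12 and 2.00 times at PND 40. The lowest ratio of a competent pool (1.86) was above the highest of a non-competent pool (1.35). Which gene is the higher rests on the exon lengths, which may understate Ago2, and in plain CPM PND 13 replicate 1 had 95.0 CPM of Ago3 and 92.6 CPM of Ago2. Ago2 was called lower in these comparisons, whereas Ago3 itself was not called in competent vs. non-competent oocytes (1.26-fold higher, edgeR adjusted p = 0.0327) or in PND 16 large vs. PND 16 small (1.12-fold, adjusted p = 0.320). The summed level of Ago1 to Ago4 ran from 15.1 to 18.0 CPM per kilobase in the non-competent pools and from 11.7 to 14.7 in the competent pools. The Argonaute genes are paralogs, and how the counting treated reads that fit more than one of them was not given in the sources used here.

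**Figure D3:**
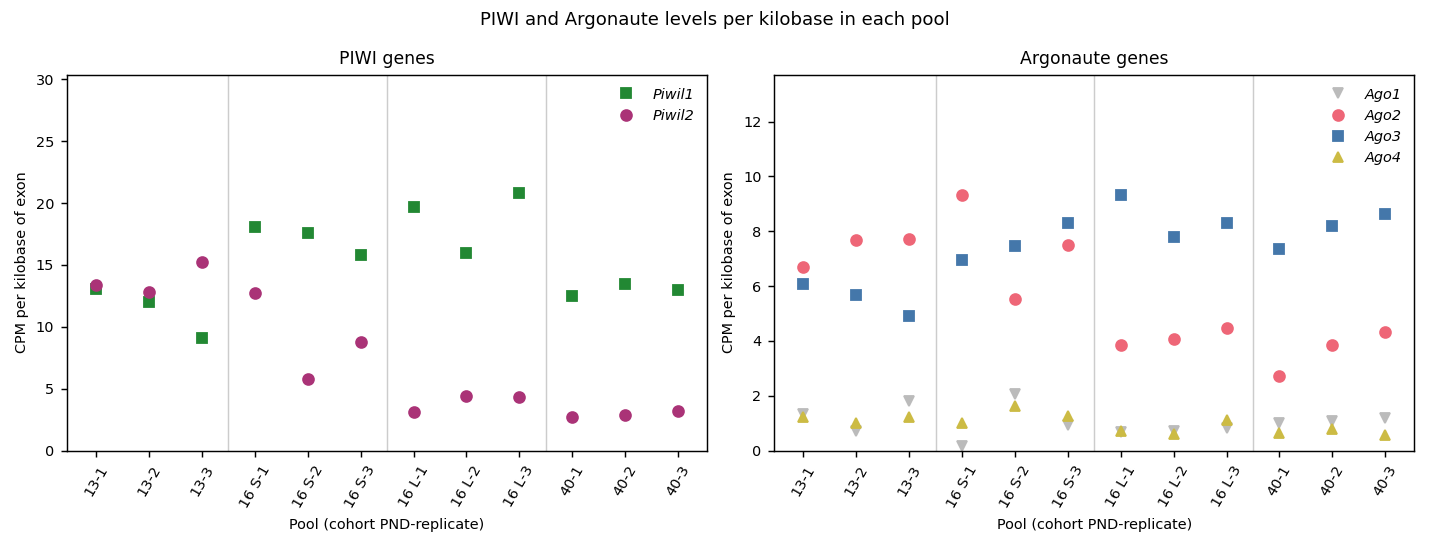
Level per kilobase of exon (CPM per kilobase, axes from 0) of the PIWI genes Piwil1 and Piwil2 (left) and the Argonaute genes Ago1 to Ago4 (right) in each of the 12 pools, with grey lines between cohorts. Piwil2 is above Piwil1 in the 3 PND 13 pools and below it in the other 9, and Ago3 is above Ago2 in all 6 competent pools.

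Other genes of the same pathways were read from lists chosen by function, with earlier results of these data known. Of 19 further microRNA and siRNA genes, all tested, 0 were called higher and 2 lower in competent vs. non-competent oocytes, beside backgrounds of 3.78% and 11.2%, with a median log2 fold change of 0.03. Of 24 further piRNA genes 21 were tested, and 0 of these were called in either direction by edgeR in that comparison, with 7 at an unadjusted p under 0.05 and a median of -0.04. Over the pairwise comparisons the microRNA and siRNA list had 1 higher and 1 lower in PND 16 large vs. PND 13 (background 3.52% and 9.80%), 1 higher and 3 lower in PND 40 vs. PND 13 (6.31% and 12.6%), 1 lower in PND 16 large vs. PND 16 small (4.76%) and 1 lower in PND 40 vs. PND 16 small (10.3%). The piRNA list had 1 higher and 2 lower in PND 40 vs. PND 13 (6.31% and 12.6%), 1 higher in PND 40 vs. PND 16 large (2.34%), and 1 higher and 1 lower in PND 40 vs. PND 16 small (6.89% and 10.3%). Neither list had a call in PND 16 small vs. PND 13, where 6 and 3 genes had an unadjusted p under 0.05. The share of all tested genes at that unadjusted p was not taken, so the counts at an unadjusted p have no background. Counts of 0 to 3 genes in lists of 19 and 21 are near these backgrounds and say nothing particular about the lists.

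**Figure D4:**
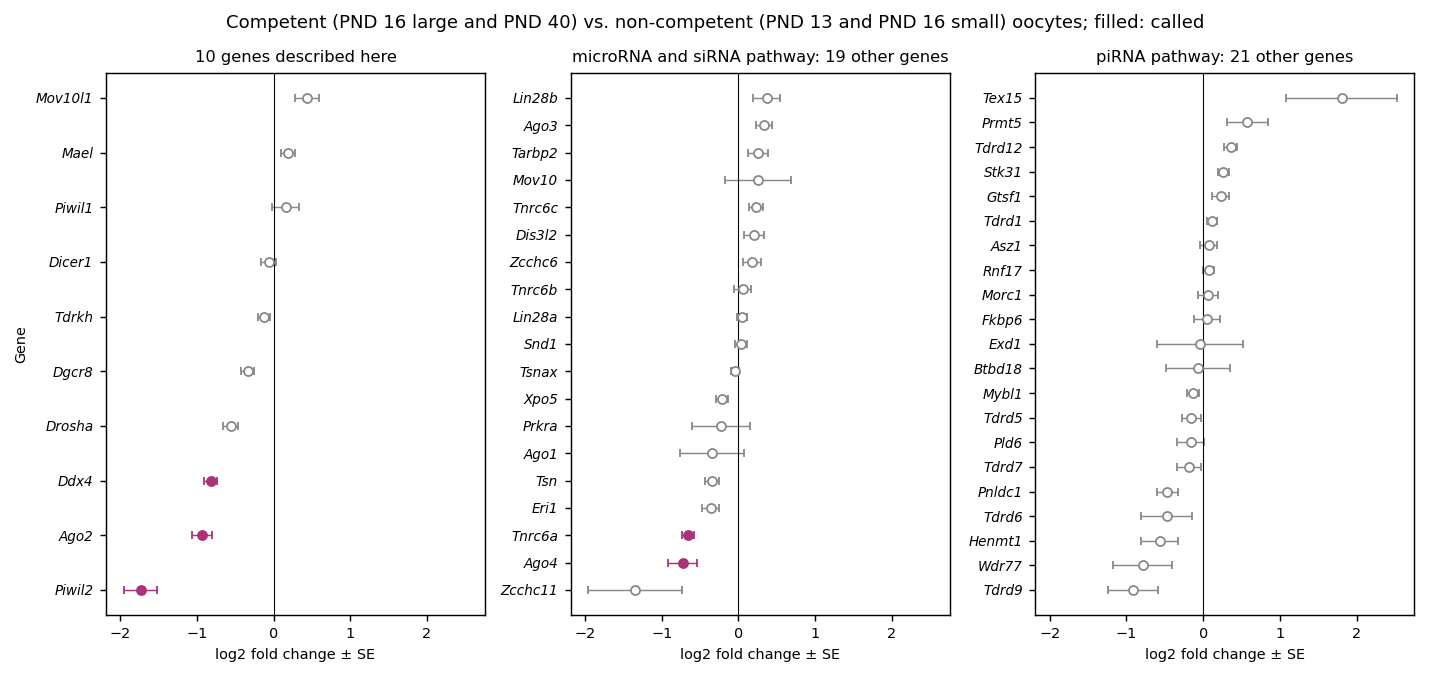
log2 fold change ± SE in competent vs. non-competent oocytes of the 10 genes (left), 19 other microRNA and siRNA genes (middle) and 21 other piRNA genes (right), with filled points for called genes. Piwil2, Ago2 and Ddx4 are filled on the left, Ago4 and Tnrc6a in the middle, and no point on the right.

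Tnrc6a, which encodes a GW182 protein that links Argonautes to the silencing machinery, moved in the same direction as Ago2. It read 87.7, 80.7 and 93.1 CPM at PND 13, 79.7, 75.1 and 98.5 CPM at PND 16 small, 52.7, 47.0 and 54.0 CPM at PND 16 large, and 61.2, 55.0 and 56.5 CPM at PND 40. Competent and non-competent pools did not overlap, and the difference was 1.58-fold (log2 fold change -0.66 ± 0.08 SE, edgeR adjusted p = 8.85e-05). Its paralogs Tnrc6b and Tnrc6c were not called in any comparison. Tnrc6a was also called lower in PND 16 large vs. PND 13 (1.70-fold), PND 16 large vs. PND 16 small (1.65-fold) and PND 40 vs. PND 13 (1.51-fold). The last call was lost without PND 13 replicate 3 (log2 fold change -0.55), PND 40 replicate 2 (-0.56) or PND 40 replicate 3 (-0.58), and without the 3 pools of highest granulosa sum (-0.49).

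The Argonaute genes Ago3 and Ago4 moved in opposite directions. Ago3 read 95.0, 88.5 and 76.7 CPM at PND 13, 108, 116 and 130 CPM at PND 16 small, 146, 122 and 130 CPM at PND 16 large, and 115, 128 and 135 CPM at PND 40. Every later pool was above the PND 13 pools, and the rise was called in PND 16 large vs. PND 13 (1.53-fold, log2 fold change 0.61 ± 0.10 SE, edgeR adjusted p = 0.00131), though not without PND 13 replicate 3 (0.53), without PND 16 large replicate 1 (0.52), with total counts only (0.51) or without the 3 pools of highest granulosa sum (0.58). Ago4 was scarce, at 6.49 to 10.6 CPM in non-competent and 3.67 to 7.29 CPM in competent pools, and was called lower in competent oocytes (1.66-fold, -0.73 ± 0.19, adjusted p = 0.0109). That call was lost without the 3 pools of highest granulosa sum (-0.55, adjusted p = 0.126, with a range of 0.00201 to 0.126 over all alternatives). The calls of Ago4 in PND 40 vs. PND 13 (-0.80, adjusted p = 0.0318) and PND 40 vs. PND 16 small (-0.99, adjusted p = 0.0127) were lost in the same way (-0.60 and -0.78), the first also without PND 13 replicate 1 or 3 or PND 40 replicate 1 or 3 (-0.76 to -0.70), and the second also without PND 16 small replicate 2 (-0.79) or PND 40 replicate 3 (-0.88).

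Lin28b and Eri1, which act on let-7 precursors and on small RNA ends, differed between the youngest and the oldest cohort. Lin28b read 32.7, 30.4 and 25.3 CPM at PND 13, 55.1, 44.0 and 34.3 CPM at PND 16 small, 44.4, 37.8 and 42.6 CPM at PND 16 large, and 43.5, 53.8 and 63.6 CPM at PND 40. It was called higher in PND 40 vs. PND 13 (1.82-fold, log2 fold change 0.87 ± 0.18 SE, edgeR adjusted p = 0.00227), but not without the 3 pools of highest granulosa sum (0.82, adjusted p = 0.0748, with a range of 2.28e-05 to 0.0748 over all alternatives). Eri1 fell from 38.4 to 44.0 CPM at PND 13 to 26.1 to 26.8 CPM at PND 40 (1.53-fold, -0.61 ± 0.12, adjusted p = 0.00176), a call lost without PND 13 replicate 1 (-0.55) and without the 3 pools of highest granulosa sum (-0.54).

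On the piRNA side, Tdrd9 and Pnldc1 were called lower and Prmt5 higher at PND 40 in at least 1 comparison. Tdrd9, a Tudor domain helicase, read 211, 81.0 and 236 CPM at PND 13, 166, 207 and 138 CPM at PND 16 small, 132, 120 and 128 CPM at PND 16 large, and 46.5, 75.2 and 49.3 CPM at PND 40. All PND 40 pools were the lowest, and the gene was called lower in PND 40 vs. PND 13 (log2 fold change -1.63 ± 0.37 SE, 3.09-fold, edgeR adjusted p = 0.00865) and also relative to PND 16 small (-1.58 ± 0.37, 2.99-fold, adjusted p = 0.0109), and not in PND 40 vs. PND 16 large (-1.15 ± 0.36, adjusted p = 0.0966). At PND 13 the pool with 140 CPM of granulosa markers held 81.0 CPM of Tdrd9, and those with 555 and 641 CPM held 211 and 236 CPM. At PND 16 small, granulosa sums of 198, 539 and 259 CPM stood beside 166, 207 and 138 CPM of Tdrd9. The PND 16 large pools had sums of 175 to 189 CPM and 120 to 132 CPM of Tdrd9. The part of granulosa cells in the Tdrd9 level was not tested. Without the 3 pools of highest granulosa sum the PND 40 vs. PND 13 value was -0.51 (adjusted p = 0.188), and with only the pools compared in the fit the adjusted p was 0.0577 (range over all alternatives 9.59e-05 to 0.188), while PND 40 vs. PND 16 small was still called under all alternatives.

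Pnldc1, the nuclease that trims piRNA 3′ ends, read 15.8, 24.9 and 19.0 CPM at PND 13, 19.1, 16.7 and 16.2 CPM at PND 16 small, 13.8, 13.9 and 17.4 CPM at PND 16 large, and 12.01, 11.1 and 12.4 CPM at PND 40. It was called lower in PND 40 vs. PND 13 (1.67-fold, log2 fold change -0.74 ± 0.17 SE, edgeR adjusted p = 0.00474), though not without PND 13 replicate 2 (-0.58), and was not called in PND 40 vs. PND 16 small (1.46-fold, adjusted p = 0.0264) or vs. PND 16 large (1.27-fold, adjusted p = 0.259). Prmt5, the arginine methyltransferase that marks PIWI proteins for Tudor binding, read 6.78, 8.13 and 11.9 CPM at PND 13, 5.44, 9.67 and 5.87 CPM at PND 16 small, 7.94, 7.81 and 7.32 CPM at PND 16 large, and 15.7, 18.0 and 14.7 CPM at PND 40. All 3 PND 40 pools were above the other 9. Prmt5 was called higher at PND 40 vs. PND 13 (1.80-fold, adjusted p = 0.0159), vs. PND 16 large (2.10-fold, adjusted p = 0.0199) and vs. PND 16 small (2.302-fold, log2 fold change 1.203 ± 0.24 SE, adjusted p = 0.00263). The call against PND 16 large was lost when any 1 of the 6 pools was left out (log2 fold change 0.98 to 1.13, adjusted p from 0.000374 to 0.0888 over all alternatives), and that against PND 13 without PND 13 replicate 1 (0.69), PND 13 replicate 2 (0.76) or PND 40 replicate 2 (0.77).

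**Figure D5:**
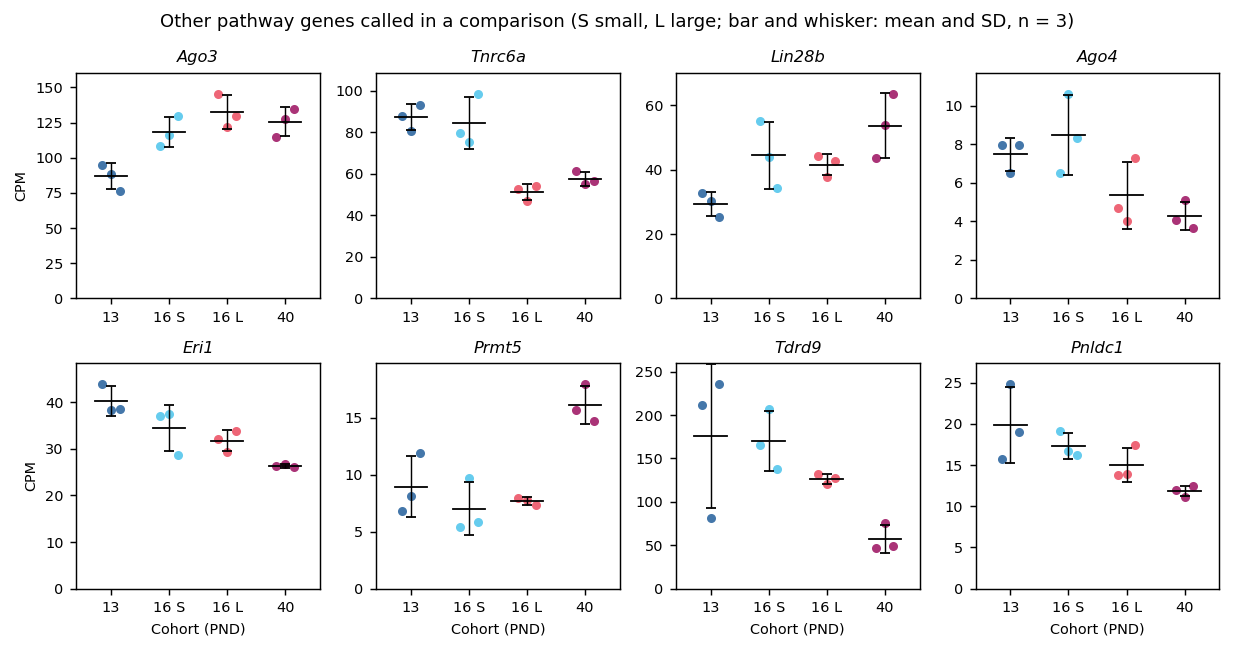
Level (CPM, axes from 0) of the 8 other pathway genes called in at least 1 comparison, in the 12 pools by cohort, with the bar and whisker at the mean and SD of 3 pools. Tnrc6a drops between PND 16 small and PND 16 large, Ago3 is lowest at PND 13, and the PND 40 pools are the highest of Prmt5 (14.7 to 18.0 CPM) and the lowest of Tdrd9 (46.5 to 75.2 CPM).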

How the data were processed

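RNA of 12 oocyte pools was sequenced after rRNA depletion with a directional kit, so transcripts without poly(A) tails are included. The authors deposited raw counts per gene and log2 values of the normalized counts plus 1; per the labels, their processing notes name FastQC, STAR, HTSeq, DESeq2, DESeq and HOMER with genome build mm10, and the versions and the annotation were not given in the sources used here. The deposited log2 values equal the log2 of the counts over DESeq2's size factors (largest difference 0.0162%) plus 1, and 0 per-sample columns were left unused. The counts were filtered with filterByExpr (minimum count 10), scaled by TMM and tested with edgeR 4.0.16 (robust quasi-likelihood F test) in R 4.3.3, over all 13943 genes that passed. One model of the 4 cohorts gave the 6 pairwise comparisons, and a model of 2 groups gave competent vs. non-competent. Called means a change of 1.5-fold or more with a Benjamini-Hochberg adjusted p no higher than 0.05, the study's own criteria. The SE of a log2 fold change is its size over the square root of F. Levels per kilobase use exon unions of the GENCODE annotation, matched by symbol for 98.6% of tested genes. The scripts were tested on simulated counts.

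Total counts of 17671193 to 27418358 per pool set the precision, and the lowest count of any of the 10 genes in a pool was 150 (Mov10l1). All 10 genes are named, and of the other pathway genes each one called in competent vs. non-competent oocytes, plus up to 2 per list and direction in each pairwise comparison. The members and lists were chosen with earlier results of these data known. Alternatives were size factors of DESeq2 or total counts in place of TMM, no or a stricter filter (minimum count 50), DESeq2 1.42.0, limma 3.58.1 on the deposited log2 values, no fold criterion, only the pools compared, a replicate block, leaving out each pool, and, added after seeing the data, leaving out the 3 pools with the highest granulosa marker sums. The last leaves PND 13 with 1 pool, assumed to vary like the other cohorts. Motifs were searched on both strands of RefSeq promoters, and the printed stretches leave out all GENCODE exons. The labels give no batch or date.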

Additional observations from a re-analysis of the deposited data

Results flagged for a closer look

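Of the 36 groups of 6 pools examined (18 genes in competent and in non-competent pools), 2 held a pool whose gap to its nearest neighbour was large for the range of its group, and chance gives about 1 in 20. Ago2 in PND 40 replicate 1 read 37.4 CPM, with the next competent pool at 53.0 CPM and the highest at 61.6 CPM. Pnldc1 in PND 13 replicate 2 read 24.9 CPM, with the next non-competent pool at 19.1 CPM and the lowest at 15.8 CPM. In both cases the pool lies on the side that widens the difference between PND 40 and PND 13. The Ago2 call in PND 40 vs. PND 13 was kept without its pool, and the Pnldc1 call was lost (log2 fold change -0.58).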

How the results depend on the processing

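No log2 fold change of a called gene changed sign under any alternative. The number of the 10 genes called in PND 16 small vs. PND 13 rose from 0 to 1 (Piwil1) with DESeq2, with a minimum count of 50 and with limma on the deposited log2 values, and was 0 to 1 when single pools were left out (Piwil1 without PND 13 replicate 1, Piwil2 without PND 16 small replicate 1). Without the fold criterion the count rose from 4 to 6 in PND 16 large vs. PND 13 and from 3 to 5 in PND 40 vs. PND 13. It also rose from 0 to 1 in PND 40 vs. PND 16 large, from 4 to 6 in PND 40 vs. PND 16 small and from 3 to 6 in competent vs. non-competent oocytes. In the last of these, 30.7% of all tested genes passed the adjusted p at any fold change. That share was not taken for the pairwise comparisons, so their counts without the fold criterion have no background. Leaving out single pools gave 2 to 4 in PND 16 large vs. PND 16 small, the lowest (Piwil2 and Ddx4) without PND 16 large replicate 2, and 0 to 1 in PND 40 vs. PND 16 large. The cause of these shifts was not tested. Scaling by total counts moved the median of all genes to -0.13 in PND 16 large vs. PND 13 and to -0.12 in PND 16 small vs. PND 13, and turned the sign only of Ago2, Mov10l1 and Tdrkh in the latter and of Dicer1 in PND 40 vs. PND 13, none of them called.

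Same-numbered pools did not deviate together: over 18 same-numbered pairs the correlation of deviations ran from -0.44 to 0.08, with 0 above 0.1. The deviations were taken from means of 3 pools, so this check cannot exclude a pairing or a shared batch. With a replicate block the counts were 0 in PND 16 small vs. PND 13, 4 in PND 16 large vs. PND 13, 3 in PND 40 vs. PND 13, 4 in PND 16 large vs. PND 16 small, 0 in PND 40 vs. PND 16 large, 4 in PND 40 vs. PND 16 small and 3 in competent vs. non-competent oocytes, as without it. With 3 pools per cohort, changes near 1.5-fold are the least secure.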

Other observations

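Among the other piRNA genes, 2 varied between pools far more than their groups did, and they are given because of their spread, after their values were seen. Tex15, which acts with the PIWI machinery in transposon methylation in the male germ line, read 31.2, 5.51 and 32.1 CPM at PND 13, 71.1, 34.2 and 17.8 CPM at PND 16 small, 214, 179 and 14.9 CPM at PND 16 large, and 22.2, 124 and 116 CPM at PND 40. In each competent cohort 2 pools were high and 1 was near the non-competent level, and the competent vs. non-competent change did not pass (log2 fold change 1.80 ± 0.73 SE, edgeR adjusted p = 0.0844). Exd1, a partner of Tdrd12, read 8.42 to 93.2 CPM over the 12 pools with PND 13 replicate 2 highest, at a log2 fold change of -0.04 ± 0.56 (SE).

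Ago1 and Zcchc11 (Tut4, a uridylyltransferase of microRNA precursors) were highest in the same 3 pools as the granulosa markers. Zcchc11 read 23.0, 27.1 and 25.0 CPM in PND 13 replicates 1 and 3 and PND 16 small replicate 2, and 1.48 to 9.13 CPM in the other 9 pools. Ago1 read 9.60, 13.1 and 14.8 CPM in those 3 pools and 1.17 to 8.60 CPM in the other 9. Neither was called in competent vs. non-competent oocytes (edgeR adjusted p = 0.566 and 0.114 for Ago1 and Zcchc11), and the part of granulosa cells in their levels was not tested. Piwil4, the third mouse PIWI gene, had at most 12 counts in a pool and was not tested.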
